A study of Mus musculus with 18 samples.

Results

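The 10 genes of hepcidin and iron handling followed here in the liver were the hepcidins Hamp and Hamp2, the iron carrier Trf, the receptors Tfrc and Tfr2, the exporter Slc40a1, the storage subunit Fth1, the ligand Bmp6 and the SMAD targets Id1 and Smad7. They were picked by gene symbol out of 19057 gene lines, with their levels in these livers already known, so the levels and differences of these 10 genes are descriptions and carry no test. All 10 of them had at least 1 RPKM (reads mapped to a gene, scaled by its length and by the size of the library) in at least 3 livers, as did 10507 genes in all. Bmp6 met this minimum in exactly 3 livers.

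The livers are labelled as from 18 male ICR mice, an outbred stock, aged 10 weeks, with 3 mice in each of 6 groups. Con mice had the regular diet and AOS mice the same diet with alginate oligosaccharide (AOS) at 10 mg/kg. HFD mice had a high-fat diet, and HFD+AOS mice that diet with AOS at 10 mg/kg. Con-FMT and A10-FMT mice had the high-fat diet and oral transfers of gut contents, pooled over the donors, from untreated mice or from mice dosed with AOS at 10 mg/kg. Con and HFD mice had saline in place of the transfer. The study's methods describe these 4 groups. AOS and HFD+AOS are known here only from the labels, whose treatment field gives a dose and no dosing schedule. Summed over its genes, a liver had between 692303 and 806937 RPKM, with 14512 to 14982 genes above 0, and read numbers and so the precision of low values are unknown.

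Hepcidin is a peptide hormone made by hepatocytes. It binds ferroportin, the product of Slc40a1 and the exporter of iron from cells, and so lowers the release of iron into plasma. Its gene is switched on by bone morphogenetic proteins through SMAD factors when iron is plentiful and by interleukin 6 through STAT3 in inflammation. Inside cells, iron regulatory proteins bind hairpins in mRNAs when iron is scarce, which blocks translation of ferritin and stabilises the mRNA of the transferrin receptor.

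In the mouse, the hepcidin genes are neighbours on the minus strand of chromosome 7. In GENCODE M21 (GRCm38), Hamp (ENSMUSG00000050440.8) lies at chr7:30942368-30944032 and Hamp2 (ENSMUSG00000056978.8) at chr7:30922372-30924681. The 250 bases before their RefSeq starts (GRCm38.p6, minus strand) are shown because the 2 genes differed in these livers. They are at chr7:30944030-30944279 for Hamp and chr7:30924182-30924431 for Hamp2, where an additional GENCODE transcript of Hamp2 has an intron. Capitals mark GGCGCC, the core of a BMP-responsive element, and TTC and GAA with any 3 bases between them, the form of site that STAT factors bind. Both strands were searched.
Hamp: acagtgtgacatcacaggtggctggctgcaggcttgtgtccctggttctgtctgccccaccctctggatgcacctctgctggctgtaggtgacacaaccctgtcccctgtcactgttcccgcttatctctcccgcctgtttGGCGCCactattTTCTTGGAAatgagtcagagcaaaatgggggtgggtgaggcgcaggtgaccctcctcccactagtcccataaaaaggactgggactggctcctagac
Hamp2: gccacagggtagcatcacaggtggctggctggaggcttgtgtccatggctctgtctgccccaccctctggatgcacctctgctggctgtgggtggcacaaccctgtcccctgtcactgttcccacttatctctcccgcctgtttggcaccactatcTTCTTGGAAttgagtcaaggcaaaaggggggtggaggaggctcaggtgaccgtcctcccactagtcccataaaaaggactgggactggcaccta
The windows aligned over 247 bases, of which 227 (91.9%) were identical. Hamp held GGCGCC from 109 bases before its start, and Hamp2 had the substitution G145A there, with positions counted from 1 at the 5′ end of Hamp's window and Hamp's base first. The TTC and GAA motif was found in both windows, 97 bases before the start in Hamp and 94 in Hamp2. Of 32851 promoter windows of the same length, 9.59% held GGCGCC and 7.02% the TTC and GAA motif. Another motif searched, CACGTG, was in 6.02% of windows, and among the 6 of the 10 genes with windows searched (Hamp, Hamp2, Tfrc, Tfr2, Fth1 and Bmp6) in that of Bmp6. GGCGCC was also in 1 window of Tfrc, 89 bases before its start. These letters are matches in a sequence and not measured binding.

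Hairpins of the iron-responsive kind are shown because Tfrc, Slc40a1 and Fth1 carry them. The search, added after the levels had been seen, took a C, a stem of 5 bases, a loop of CAGTG and then A, C or T, and 5 bases pairing with the stem. Such 17 bases were in an untranslated region of 123 of 21877 coding genes (0.562%) of GENCODE M21, read along the transcript. The loop is in capitals. Those of the ferritins Fth1 (chr19:9982738-9982754) and Ftl1 (chr7:45459785-45459801, minus strand) and of Slc40a1 (chr1:45925471-45925487, minus strand) were in the 5′ untranslated region. The other 4 were in the 3′ untranslated region of Tfrc, at chr16:32631225-32631241, chr16:32631604-32631620, chr16:32631669-32631685 and chr16:32631716-32631732.
Fth1: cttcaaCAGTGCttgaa
Ftl1: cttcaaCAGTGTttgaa
Slc40a1: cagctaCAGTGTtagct
Tfrc hairpin a: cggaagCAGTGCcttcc
Tfrc hairpin b: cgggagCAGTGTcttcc
Tfrc hairpin c: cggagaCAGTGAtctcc
Tfrc hairpin d: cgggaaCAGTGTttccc

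Before the results, some livers need to be set apart. Replicate 3 of Con lay between the other Con livers for 98% of the 148 genes by which those differed by at least 1 on the log2 scale, and replicate 3 of AOS likewise for 96.5% of 142 genes. In the 4 high-fat groups this share was between 58.1% and 76.8%. Whether these 2 are separate livers cannot be told from the files, and n counts them as labelled. Results that rest on Con or AOS are therefore also given without both of these livers. Acute phase genes were high in replicates 1 and 3 of Con: Saa1, serum amyloid A, was at 6421.65, 296.14 and 3569.84 RPKM in Con and between 43.18 and 278.36 in the other 15 livers. Hepatocyte markers were high throughout (6 of 6 listed genes, summed RPKM 46780.7 to 69691.5). The 10 exocrine pancreas markers summed to 31.00 to 53.44, of which Cela1, also read in liver, made up 30.55 to 52.88. Of the rest, Cela2a was at 0.16 to 2.65 RPKM, and each of the others was at most at 0.87 (Amy2a5).

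In RPKM, which is per length, the 10 genes covered a wide range of levels. Trf, the plasma carrier of iron, had a median of 8104.05 over the 18 livers, Hamp 4151.74 and Fth1 1291.06. Tfr2, which senses transferrin in hepatocytes, had 121.68, Slc40a1 44.86 and Hamp2 34.01. Id1 (4.75), Tfrc (4.59), Smad7 (3.02) and Bmp6 (0.91) were low. Hamp2 varied most, with its highest liver 30.6 times its lowest, against 4.75 times for Hamp and 1.26 times for Trf.

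Hamp2 stood apart in Con. Its RPKM was 6.50, 2.96 and 4.32 in Con, below each of the other 15 livers. AOS livers had 67.87, 31.78 and 44.72, and HFD livers 42.62, 90.49 and 33.71. Both groups lay wholly above Con, as 18.5% (HFD) and 24.7% (AOS) of all tested genes lay wholly above or below it. The mean of HFD was 12.1 times and that of AOS 10.5 times that of Con. In HFD+AOS it was 25.64, 37.25 and 65.55, and in A10-FMT 34.30, 31.30 and 55.68. Con-FMT was the most scattered group, at 51.77, 16.26 and 9.22. From the highest mean, the order was HFD (55.6 ± 30.5, SD, n = 3), AOS (48.1 ± 18.3), HFD+AOS (42.8 ± 20.5), A10-FMT (40.4 ± 13.3), Con-FMT (25.8 ± 22.8) and Con (4.59 ± 1.79). Neighbours in this order overlapped except Con-FMT and Con.

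**Figure D1:**
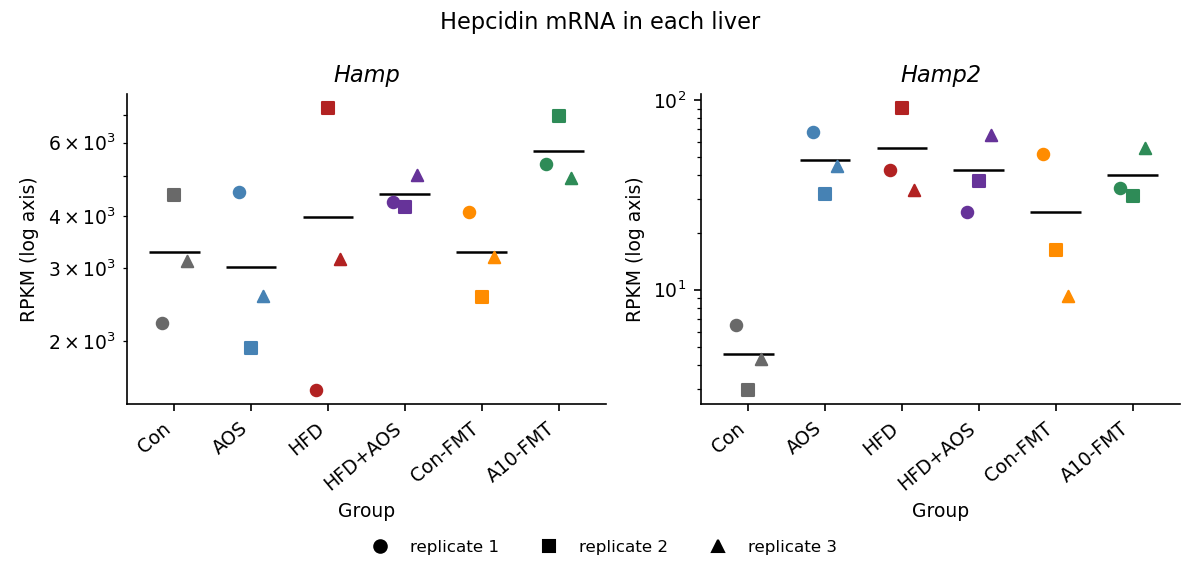
RPKM of Hamp and Hamp2 (log axes) in each liver of the 6 groups, with markers for the replicates and lines at the group means (n = 3). The Con livers have the lowest Hamp2, at 2.96 to 6.50, while their Hamp, at 2209.74 to 4496.47, lies within the range of the HFD livers.

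On the scale of log2(RPKM + 1), which understates changes of low genes, Hamp2 was higher by 3.26 ± 0.52 (SE) in HFD than in Con and by 3.12 ± 0.52 in AOS than in Con. Both comparisons share the Con livers. Without replicate 3 of Con and of AOS, these differences were 3.25 and 3.12. In the fit over all genes (limma, n = 3 per group, adjusted p under 0.05), Hamp2 was the 1 gene of the 10 called in each comparison, beside 0.381% of all tested genes for HFD against Con and 0.133% for AOS against Con. Nothing is read from these counts, since the genes were chosen with their values known. The count was 0 in both comparisons without those 2 livers, without replicate 1 of Con and without replicate 3 of Con. It was also 0 without replicate 2 of HFD for the former, and without replicate 1 or replicate 3 of AOS for the latter. In these fits few genes were called at all: 0 of 10507 in both comparisons without the 2 livers, without Con 1 or without Con 3, 9 without HFD 2, 5 without AOS 1 and 0 without AOS 3.

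Of the acute phase genes, Saa1, Saa2, Orm2 and Lcn2 were far higher in replicates 1 and 3 of Con than in any other liver. Replicate 2 of Con was also above every liver of the other groups for Saa1 (296.14 RPKM) and Saa2 (300.04 RPKM). Its Lcn2 (47.53 RPKM) was below only replicate 1 of AOS (48.66), and its Orm2 (39.77 RPKM) below only replicate 2 of HFD (45.37), among the other groups. Over the 8 genes listed, the summed RPKM was 6927.21 to 28809.7 in Con, against 6402.85 to 8235.54 in AOS and 5674.87 to 7679.64 in HFD, with no gene at 0 in any liver. The lowest Con sum, that of replicate 2, lay within the ranges of AOS and HFD. Replicate 2 of Con, which had the lowest Saa1 of its group, also had the lowest Hamp2 of all livers, at 2.96. The part of the acute phase in the Hamp2 values was not tested.

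Hamp, the main hepcidin, did not separate Con from the rest. It was at 2209.74, 4496.47 and 3113.06 RPKM in Con, 4564.44, 1926.85 and 2565.94 in AOS, and 1527.89, 7263.87 and 3155.72 in HFD. HFD held both the lowest and the highest of the 18 livers. Con-FMT livers had 4092.52, 2551.45 and 3194.73, and HFD+AOS livers 4313.85, 4210.97 and 5020.44. A10-FMT had the highest mean, with livers at 5326.96, 6937.94 and 4924.21 that lay wholly above those of Con-FMT. Groups did not overlap in this comparison for 18.3% of all tested genes, and for 3 of the 10 (Hamp and Smad7 above, Trf below). In the order of means, A10-FMT, HFD+AOS, HFD, Con-FMT, Con and AOS, all neighbours overlapped.

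The log2 difference of Hamp was 0.06 ± 0.43 (SE) for HFD against Con and 0.05 without the livers Con 3 and AOS 3. It had no steady direction, with -0.52 without replicate 2 of HFD, 0.61 without replicate 1 of HFD, -0.19 without replicate 1 of Con and 0.32 without replicate 2 of Con. It was 0.82 ± 0.43 for A10-FMT against Con-FMT, with a 95% interval from -0.10 to 1.73. For A10-FMT against HFD it was 0.79 ± 0.43. Leaving out replicate 1 of HFD brought the latter to 0.24 and leaving out replicate 2 of HFD to 1.37, so that these livers decided its size. Against HFD, Hamp in HFD+AOS differed by 0.46 ± 0.43, which became -0.09 without replicate 1 and 1.04 without replicate 2 of HFD.

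The share of Hamp2 relative to Hamp was low in Con, with 1 other liver within its range. Hamp2 RPKM was 0.294%, 0.0658% and 0.139% of Hamp RPKM in Con, and between 0.289%, in replicate 3 of Con-FMT, and 2.79% in the other livers. The genes share sequence: their transcripts (410 bases for Hamp, 424 for Hamp2) have an identical stretch of 62 bases, and 88 of 375 windows of 50 bases of Hamp2 (23.5%) were found in Hamp within 2 mismatches. Reads in such windows could have been counted for either gene, so Hamp2 RPKM is uncertain by what Hamp could lend it. In the Con liver with the smallest share, all Hamp2 signal came to 0.0658% of Hamp.

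Among the genes that carry and take up iron, Tfrc (chr16:32608920-32632794), which takes transferrin-bound iron into cells, had its lowest values in HFD+AOS. They were 2.67, 2.42 and 2.60 RPKM, against 5.50, 4.12 and 6.25 in HFD, without overlap, which held for 27.2% of all tested genes and for 1 of the 10. Con livers had 6.06, 6.23 and 6.39, AOS livers 6.22, 4.52 and 4.91, and Con-FMT livers 4.66, 5.23 and 4.05. A10-FMT livers, at 2.74, 4.30 and 3.65, overlapped with HFD and Con-FMT but lay above each HFD+AOS liver. The order of means was Con (6.23 ± 0.17, SD, n = 3), HFD (5.29 ± 1.08), AOS (5.22 ± 0.89), Con-FMT (4.65 ± 0.59), A10-FMT (3.56 ± 0.78) and HFD+AOS (2.56 ± 0.13), in which neighbours overlapped except the last pair.

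Tfrc was lower in HFD+AOS than in HFD by a log2 difference of -0.81 ± 0.14 (SE), and the 13 alternative fits gave from -0.998 (with a pseudocount of 0.1) to -0.70. It was the 1 gene of the 10 called in this comparison, beside 8.75% of all tested genes, and it was called in each of those fits. Those fits reuse the same livers, and nothing is read from the calls, since the gene was chosen with its values known. In A10-FMT against HFD, the difference was -0.46 ± 0.14, and 0 of the 10 genes were called, beside 6.6% of all tested genes. That count became 2 (Tfrc and Smad7) without replicate 2 of HFD and 1 (Tfrc) without replicate 2 of A10-FMT. Of all 10507 tested genes, 323 and 271 were called in these fits. Red cell precursors are rich in Tfrc. The summed RPKM of the 7 red cell genes listed, among them Hba-a1, was 872.61 to 1266.09 in HFD+AOS and 823.2 to 2698.4 in HFD, with Hba-a2 at 0 in 4 of the 18 livers and at most at 1.32. Their part in the Tfrc values was not tested, and in whole liver, fewer cells of a type and less RNA per cell cannot be told apart.

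Slc11a2 (chr15:100387898-100425072, minus strand), which encodes the transporter DMT1 that moves ferrous iron into the cytosol, was not among the 10 genes and was tested as one of the other genes of iron handling. It was at 6.66, 6.76 and 6.31 RPKM in HFD+AOS and at 9.58, 10.53 and 9.01 in HFD. HFD+AOS livers were all below those of HFD, and of the other 15 livers only 1, of A10-FMT, was within their range. Slc11a2 fell in HFD+AOS by 0.50 ± 0.10 (SE) on the log2 scale against HFD (limma, Benjamini-Hochberg adjusted p = 0.00767), and the adjusted p over the alternative fits was from 0.00699 to 0.0386. In A10-FMT it was at 8.07, 6.66 and 7.72, with a log2 difference of -0.34 ± 0.10 from HFD that missed the threshold (adjusted p = 0.0538, limma, and 0.0525 to 0.217 over the alternatives). No hairpin of the pattern above was in an untranslated region of its coding GENCODE transcripts. That pattern allows no unpaired base within the stem, so iron-responsive hairpins of other forms would have been missed. Whether Slc11a2 carries such a hairpin was not tested.

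**Figure D2:**
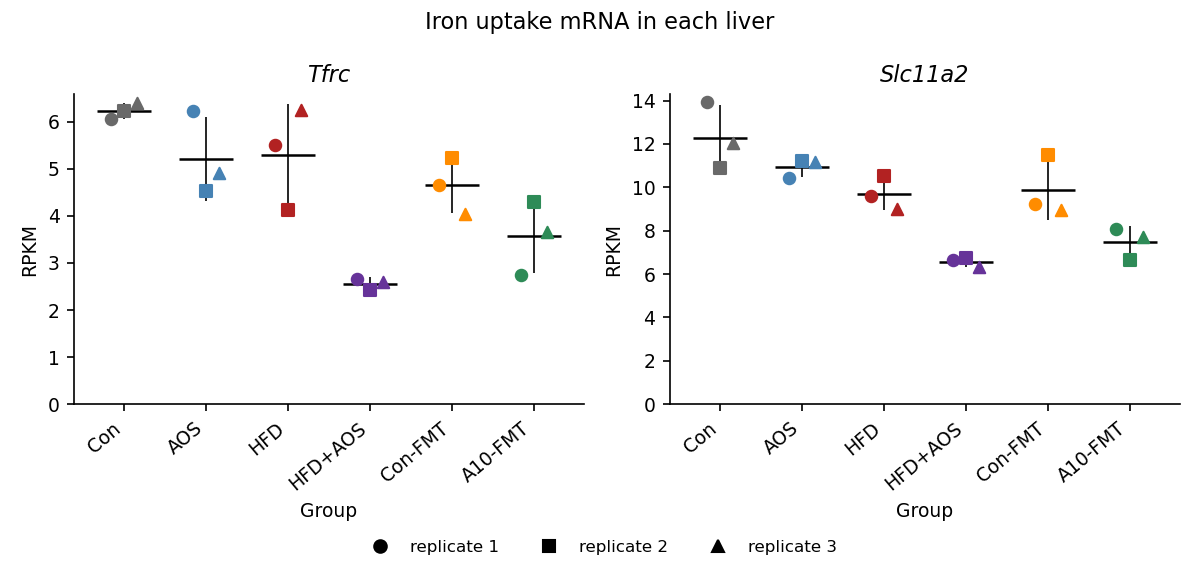
RPKM of Tfrc and Slc11a2 in each liver of the 6 groups, with markers for the replicates, horizontal lines at the group means and vertical lines for the SD (n = 3). HFD+AOS livers sit at 2.42 to 2.67 for Tfrc and 6.31 to 6.76 for Slc11a2, below the HFD livers.

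Trf (chr9:103204001-103230444, minus strand) differed little between livers, from 7265.42 to 9181.98 RPKM. It was at 7966.01, 7325.44 and 7265.42 in A10-FMT, wholly below HFD (7991.86, 8769.47 and 8935.29) and Con-FMT (8836.93, 9181.98 and 8854.46). The log2 differences were -0.19 ± 0.09 (SE) and -0.25 ± 0.09. Trf was the only gene of the 10 without overlap between A10-FMT and HFD, which held for 23.4% of all tested genes. Tfr2 (chr5:137569840-137587481) stayed between 98.67 and 131.84 RPKM, all groups that were neighbours in the order of means overlapped, and its largest difference in the 6 comparisons was 0.16 ± 0.10, for HFD+AOS against HFD, which became 0.05 without replicate 3 of HFD.

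Export and storage moved little. Slc40a1 (chr1:45908068-45926523, minus strand) was between 34.07 and 60.58 RPKM, with the highest mean in HFD+AOS (51.5 ± 8.14, SD, n = 3) and the lowest in Con (39.4 ± 3.56). Its values were 49.28, 44.77 and 60.58 in HFD+AOS and 34.07, 43.69 and 47.16 in HFD, which overlapped, and the log2 difference was 0.30 ± 0.14 (SE), or 0.17 without replicate 1 of HFD and 0.18 without replicate 3 of HFD+AOS. Fth1 (chr19:9980598-9985098), the heavy subunit of ferritin, was highest in AOS at 1509.37, 1554.37 and 1536.10, above each of the other 15 livers. Con livers had 1307.20, 1395.54 and 1375.93, and the lowest liver was replicate 1 of HFD at 1072.86. The log2 difference of AOS from Con was 0.17 ± 0.10, 0.18 without the livers Con 3 and AOS 3 and 0.11 where all libraries were scaled to 1 median. The red cell genes were also above Con in each AOS liver, with summed RPKM of 2112.16 to 2742.23 against 1256.16 to 1972.25, and their part was not tested.

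AOS livers lay wholly above Con for 5 of the 10 genes (Hamp2, Slc40a1, Fth1, Id1 and Smad7) and below for 0, while 19.5% of all tested genes lay wholly above and 5.27% below. The livers Con 3 and AOS 3 are among those compared.

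Bmp6 (chr13:38345107-38500302), the ligand that signals iron stores to hepatocytes and is made by sinusoidal endothelial cells, was at 0.59 to 1.13 RPKM. The groups overlapped, and the log2 differences in the 6 comparisons were between -0.04 and 0.11, each with an SE of 0.11. Its values were 0.71, 0.90 and 0.94 in Con, 0.59, 1.06 and 0.89 in HFD and 1.13, 0.99 and 0.84 in A10-FMT. The 7 endothelial markers listed, none at 0, summed to between 40.93 and 53.56 RPKM over all livers.

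Id1 (chr2:152736251-152737410), a target of BMP signalling that blocks DNA binding of other factors, was steady in Con at 3.77, 4.06 and 3.90 RPKM and reached 8.95, 11.80 and 6.30 in HFD+AOS. HFD livers had 4.10, 12.80 and 3.54, so replicate 2 of HFD was above every HFD+AOS liver. The log2 difference of HFD+AOS from HFD was 0.51 ± 0.32 (SE) with all livers. It was 0.22 without replicate 3 of HFD, 0.30 without replicate 1 of HFD, 0.32 without replicate 2 of HFD+AOS and 1.02 without replicate 2 of HFD. In the last of these fits the genes called were 2, Id1 and Tfrc. Id1 was at 7.86, 5.81 and 4.64 in A10-FMT and 3.13, 5.13 and 3.56 in Con-FMT, with overlap. In the order of means, HFD+AOS, HFD, A10-FMT, AOS, Con-FMT and Con, all neighbours overlapped.

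Smad7, an inhibitor that the same signal induces, was lowest in Con, at 1.77, 2.33 and 2.18 RPKM. AOS livers had 3.52, 2.93 and 3.23, all above Con, and the log2 difference was 0.45 ± 0.12 (SE), or 0.47 without the livers Con 3 and AOS 3. A10-FMT livers were close together at 3.55, 3.55 and 3.46 and lay just above Con-FMT (2.95, 3.44 and 3.08). HFD livers, at 2.47, 3.50 and 2.02, overlapped with both. Against HFD, A10-FMT was higher by 0.32 ± 0.12, by 0.48 without replicate 2 of HFD and by 0.19 without replicate 3 of HFD.

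**Figure D3:**
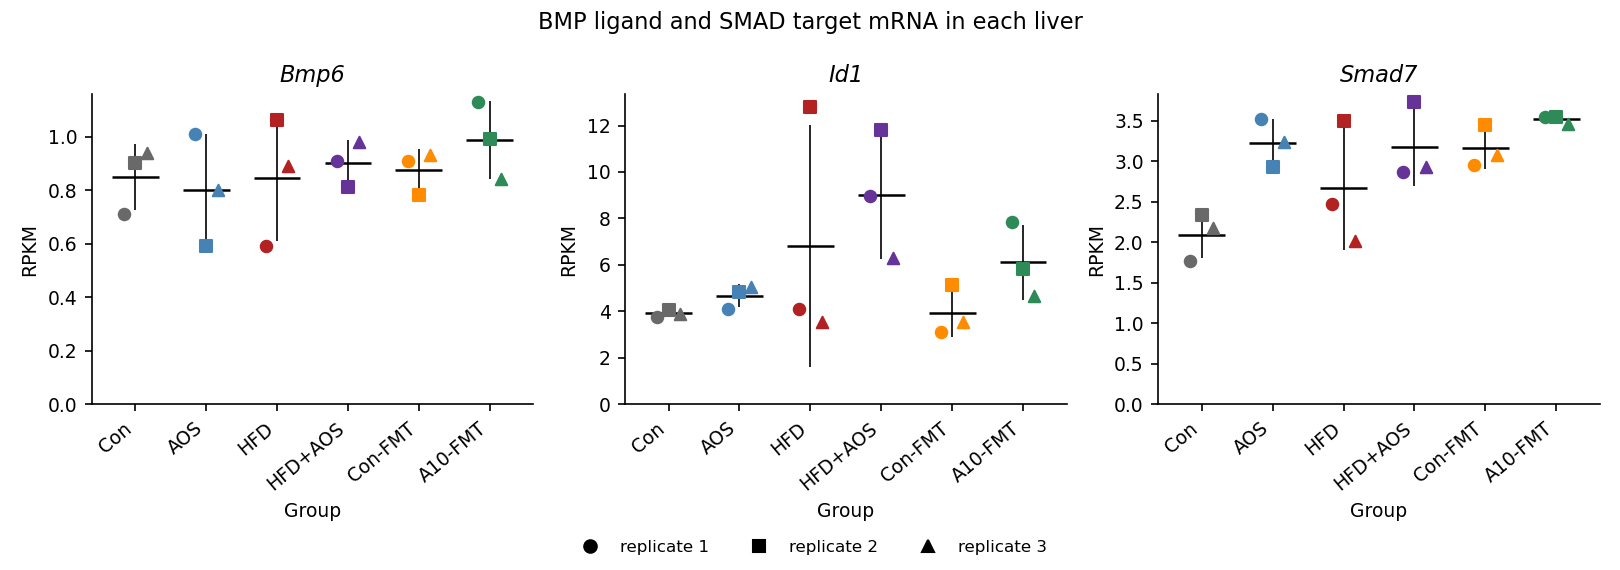
RPKM of Bmp6, Id1 and Smad7 in each liver of the 6 groups, with markers for the replicates, horizontal lines at the group means and vertical lines for the SD (n = 3). Replicate 2 of HFD reaches 12.80 for Id1 while the other HFD livers are at 4.10 and 3.54.

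Replicate 2 of HFD was the highest of all 18 livers for 3 of the 10 genes, Hamp (7263.87), Hamp2 (90.49) and Id1 (12.80), and for 1257 of the 10507 tested genes. It was the highest of its group for 6 of the 10 genes, and for 48.3% of all tested genes.

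The likeness of patterns was described by the correlation of log2(RPKM + 1) over the 18 livers, which share the scale of their library and are not independent of the groups. These values have no test, since the pairs were ranked over all genes. For Hamp, the most alike of 10506 genes was Bmp6 (Pearson r = 0.86, Spearman rho = 0.83, n = 18), followed by Znhit6 (0.85), Selenoh (0.85), Ankrd55 (0.84) and Adh5 (0.82). With Bmp6, r was 0.88 without the livers Con 3 and AOS 3, 0.75 without the 2 livers farthest from the median, and 0.86 over deviations from the group means. All Bmp6 values were near 1 RPKM, where a change of few reads counts.

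**Figure D4:**
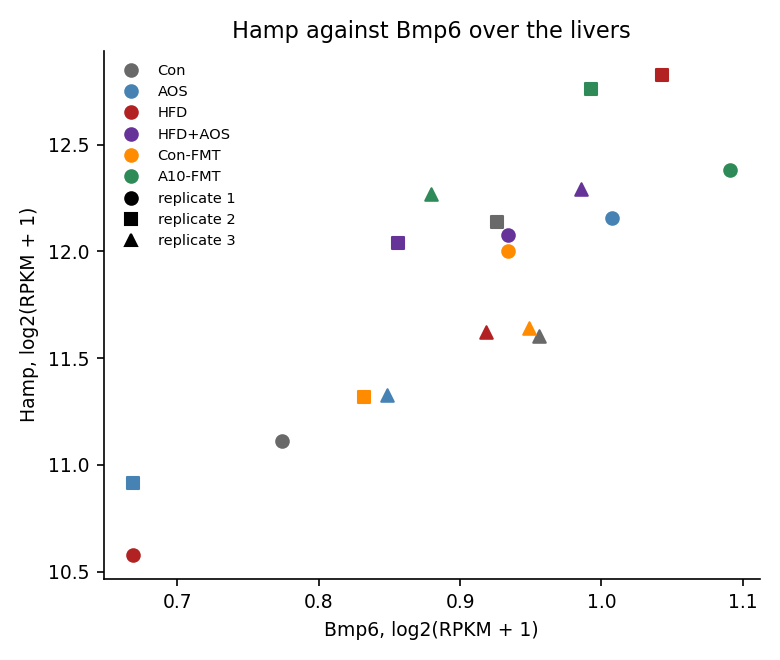
Log2(RPKM + 1) of Hamp against that of Bmp6 in the 18 livers, coloured by group and with markers for the replicates. Livers low in Bmp6, such as replicate 1 of HFD (0.59 RPKM) and replicate 2 of AOS (0.59 RPKM), are also low in Hamp, and r is 0.86.

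Hamp2 did not follow Hamp closely (r = 0.29, n = 18, rank 2825 of 10506 genes). The genes most like Hamp2 were Pcnx (0.78), Xrn2, Ddah1, Med30 and Cul4b (all 0.77). Over deviations from the group means, r was 0.20 for Pcnx, 0.46 for Xrn2, 0.41 for Ddah1, 0.78 for Med30 and 0.68 for Cul4b. With Bmp6, Hamp2 had r = 0.13. Among the genes most like Id1 were Marveld2 (0.84), Cbx2 (0.81), Stmn1 (0.80) and Spc25 (0.79). Within the 10 genes, Id1 and Smad7 had r = 0.55, and 0.79 over deviations from the group means. Tfrc and Id1 ran in opposite directions, with r = -0.71, and -0.59 over deviations from the group means. In likeness to Tfrc, Id1 had rank 10177 of 10506 genes, so other genes ran more strongly opposite to Tfrc.

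Over the 6 comparisons, the members called were 1 (Hamp2) for HFD against Con, 1 (Hamp2) for AOS against Con, 1 (Tfrc) for HFD+AOS against HFD and 0 for the other 3. For Con-FMT against HFD, 0.00952% of all tested genes were called and 10.1% did not overlap, against 0 of the 10 genes, and for A10-FMT against Con-FMT 1.68% were called. For the difference between the diets of the AOS effect, the call was 1 gene (Hamp2), beside 0.504%. At an unadjusted p under 0.05 (limma), 1 gene of the 10 passed for Con-FMT against HFD, beside 6.63% of all tested genes. The number was 2 for A10-FMT against HFD, beside 24.5%, and 2 for A10-FMT against Con-FMT, beside 16.4%. For Con-FMT against HFD, the log2 difference of Hamp2 was -1.30 ± 0.52 (SE), -1.96 without replicate 1 of Con-FMT, the liver at 51.77 RPKM, and -0.78 without replicate 3, the liver at 9.22 RPKM. For A10-FMT against Con-FMT, it was 0.93 ± 0.52, 1.60 without the former and 0.41 without the latter.

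**Figure D5:**
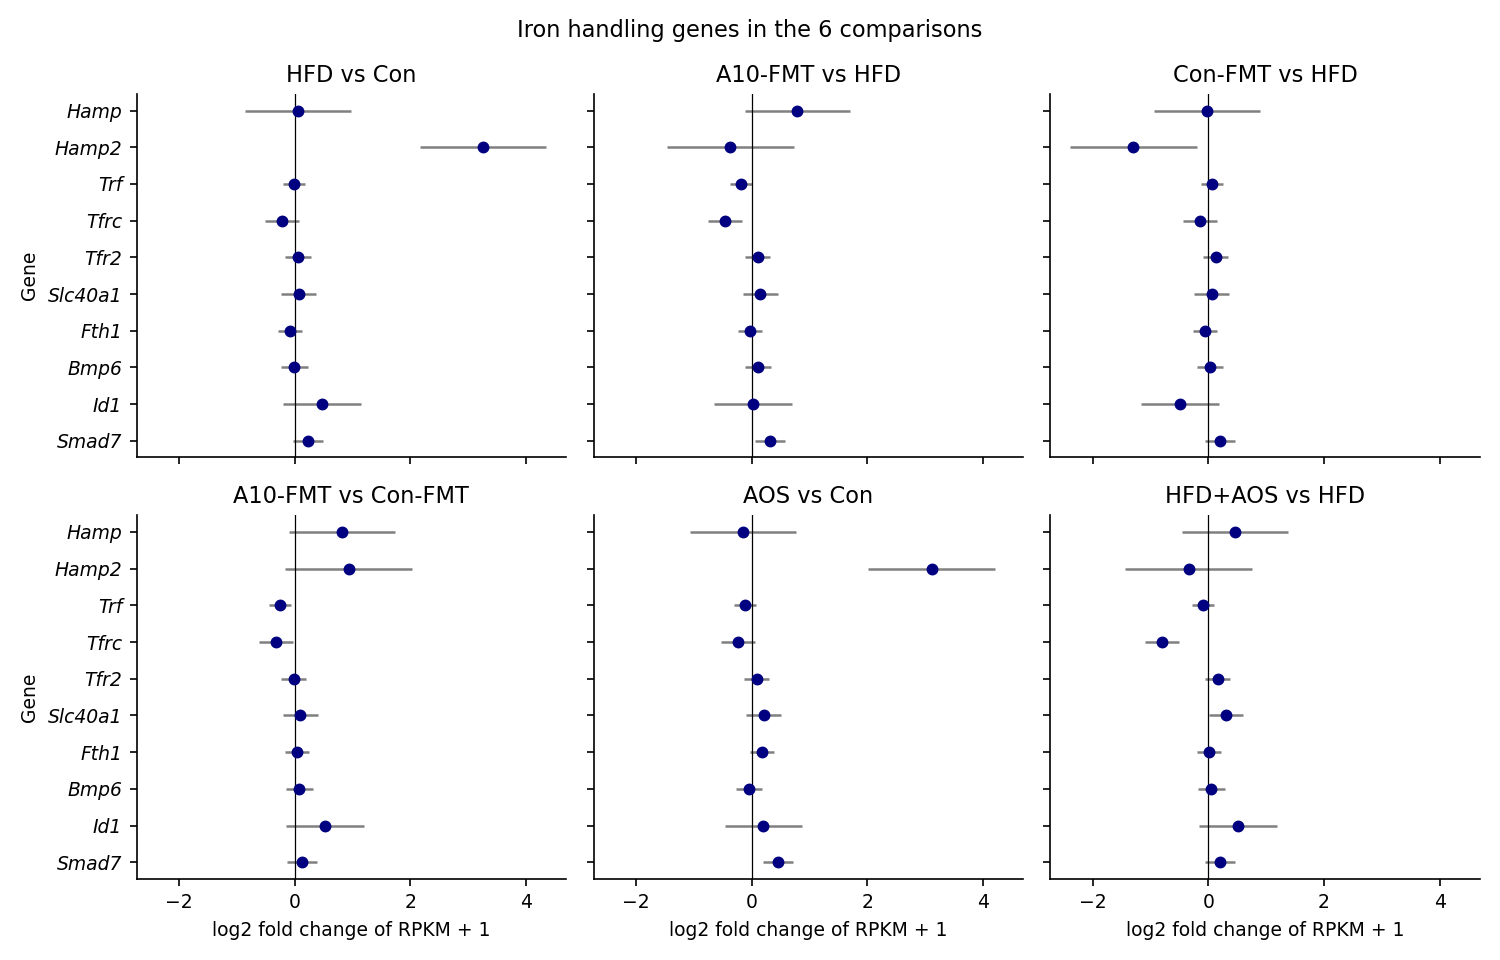
Log2 fold changes of RPKM + 1 of the 10 genes in the 6 comparisons, as points with 95% intervals from the fit over all 18 livers. The Hamp2 intervals for HFD against Con (2.16 to 4.36) and AOS against Con (2.02 to 4.22) lie farthest from 0, and that of Tfrc for HFD+AOS against HFD spans -1.10 to -0.51.

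The other genes of iron handling came from 6 hand-written lists of 81 symbols, of which 76 were in the table and 69 had enough signal to be tested. Interleukin 6 (Il6) and the erythroid hormone Erfe were among the genes too low to test. In HFD against Con, 0 of the 69 rose and 1 fell, beside 0.381% of all tested genes called. The median log2 difference of the 69 was 0.02 against 0.05 over all tested genes. The gene that fell was Lcn2, whose product binds bacterial iron carriers and which is also an acute phase gene. It was at 1043.15, 47.53 and 612.28 RPKM in Con and 9.36, 38.81 and 6.12 in HFD, and it fell by 4.46 ± 0.90 (SE) on the log2 scale (limma adjusted p = 0.0448, n = 3). The adjusted p was 0.315 without the livers Con 3 and AOS 3, and from 0.000772 to 0.315 over all alternatives, and the call was lost without any 1 of Con 1, Con 3 and the 3 HFD livers.

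In AOS against Con, 0 of the 69 were called by limma, beside 0.133% of all tested genes. Before adjustment 15 were past 0.05, beside 15.5% of all tested genes, and the median was 0.11 against 0.07 over all genes. In Con-FMT against HFD, 0 were called, beside 0.00952% of all tested genes. Before adjustment 4 were past 0.05, beside 6.63% of all tested genes. In A10-FMT against Con-FMT, 0 rose and 1 fell, beside 1.68% of all tested genes called. The gene that fell, Slc39a8, a zinc and iron transporter, was at 8.43, 6.95 and 8.97 RPKM against 10.65, 11.27 and 9.84. Slc39a8 fell by 0.35 ± 0.08 on the log2 scale (limma adjusted p = 0.0387, and from 0.0103 to 0.282 over the alternatives). It was not called without the livers Con 3 and AOS 3 (adjusted p = 0.0897), or without any 1 of the first and second livers of Con-FMT and of A10-FMT.

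In A10-FMT against HFD, 1 of the 69 rose and 1 fell, beside 6.6% of all tested genes called. Slc25a28, which brings iron into mitochondria, was at 12.57, 13.12 and 10.92 RPKM against 9.32, 10.22 and 8.31, a log2 difference of 0.36 ± 0.09 (limma adjusted p = 0.0261, and from 0.00983 to 0.171 over the alternatives). Il6st, the signalling subunit of the interleukin 6 receptor, was at 13.12, 12.02 and 12.57 against 14.97, 14.58 and 17.05, a log2 difference of -0.28 ± 0.07 (adjusted p = 0.0261, and from 0.0266 to 0.196). Both calls were lost without HFD 3, A10-FMT 1 or A10-FMT 2, and that of Il6st also without the livers Con 3 and AOS 3 (adjusted p = 0.0530). Of the 12 genes of mitochondrial iron and iron-sulphur assembly, 10 had a positive difference, with a median of 0.15 against -0.03 over all tested genes. This direction was not particular to A10-FMT against HFD. In HFD+AOS against HFD 10 of the 12 were positive (median 0.09), and in Con-FMT against HFD 9 (0.07). The number was 11 in AOS against Con (0.14), 8 in A10-FMT against Con-FMT (0.09) and 5 in HFD against Con (-0.02).

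In HFD+AOS against HFD, 1 of the 69 rose and 2 fell, beside 8.75% of all tested genes called. The 2 that fell were Slc11a2 and Il6st. Il6st was at 13.06, 12.54 and 12.25 RPKM in HFD+AOS, a log2 difference of -0.28 ± 0.07 (limma adjusted p = 0.0255, and from 0.0242 to 0.129 over the alternatives). Mcoln1, a lysosomal channel that releases iron, was at 14.90, 15.27 and 16.53 against 12.28, 13.41 and 12, a log2 difference of 0.29 ± 0.08 (adjusted p = 0.0437, and from 0.00850 to 0.149). Without the livers Con 3 and AOS 3, neither was called (adjusted p = 0.0519 and 0.0805). Il6st was also not called without HFD 3 or any 1 HFD+AOS liver, and Mcoln1 without any 1 liver of either group. All comparisons with HFD share the HFD livers.

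Of the genes upstream of hepcidin, Hfe, Hfe2, Bmp2 and Tmprss6 did not pass the test in any of the 6 comparisons. Hfe, a partner of the transferrin receptors, was between 15.90 and 24.39 RPKM. Hfe2, hemojuvelin and the BMP co-receptor, was at 29.66, 37.42 and 33.59 in Con, 34.73, 29.41 and 24.18 in HFD and 21.22, 19.83 and 23.81 in A10-FMT, where the livers were all below those of HFD. This difference was -0.42 ± 0.14 on the log2 scale (limma adjusted p = 0.0777). Bmp2, an endothelial ligand, had group means from 1.99 to 2.77 RPKM, and Tmprss6, the protease that cleaves hemojuvelin, from 143.02 to 161.05. The same held for Ftl1, Cp, Slc39a14, Aco1 and Ireb2. Ftl1, the light subunit of ferritin, had group means from 2883.04 to 3695.39 RPKM, Cp, the plasma ferroxidase, from 306.75 to 400.07, and Slc39a14, a transporter of unbound iron, from 27.09 to 37.44. The iron regulatory proteins Aco1 and Ireb2 had group means from 47.19 to 50.68 and from 11.50 to 15.07 RPKM.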

How the data were processed

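Total RNA of whole liver was sequenced on an Illumina HiSeq. By the study's methods, SOAPaligner was used against reference genes, and the submitters' processing notes name Bowtie 0.12.2 and mm10. The authors deposited RPKM values, rounded to 2 decimals. The settings given for SOAPaligner report every hit of a read, and strandedness is not given in the sources used here. The unit is taken from the methods. DEGseq, the study's test, needs read numbers and was not run, so that limma took its place.

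Groups came from the labels, and the 18 columns were matched to them by name. Values were log2(RPKM + 1). Genes with at least 1 RPKM in at least 3 livers (10507) were fitted with 6 group means over the 18 livers (limma 3.58.1, R 4.3.3, trended eBayes). Adjustment of p-values was by Benjamini-Hochberg over all of them, and a gene was called at an adjusted p under 0.05. Nothing says whether mice shared a cage or litter, so p-values measure the spread between these livers. On simulated data for HFD against Con, calls were made for 99 of 100 genes set to a log2 of 2, for 95 of 100 set to 1 and for 10 of 10207 left unchanged. Changes were set only in genes with a mean log2(RPKM + 1) above 3, with independent normal noise. Id1, Tfrc, Smad7 and Bmp6 lie below that level, so these shares do not cover them. The shares are over many genes, and Hamp and Hamp2 had the largest SEs of the 10 (0.43 and 0.52). For Hamp and Hamp2 the shares therefore do not tell what change would have been called. More genes were set to change than the 40 called for HFD against Con in the livers, and the adjustment depends on that number. The size of 1 read, estimated from 23 sparsely read genes, differed between livers by a ratio of 0.963 to 1.03.

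The 10 genes, the lists and the tests were chosen with earlier results of these data known. Named beside the 10 are Hfe, Hfe2, Bmp2, Tmprss6, Ftl1, Cp, Slc39a14, Aco1 and Ireb2, up to 3 genes called per list and comparison by smallest p, and the 5 genes most like Hamp, Hamp2 and Id1, of which 1 is not reported here. Saa1 and the markers were named to describe livers. Of the 81 listed symbols, Hjv is in the table as Hfe2, and Ftmt, Epo and Fdx2 were not matched, nor was the older symbol of Erfe. Kupffer and stellate cell markers summed to 55.09 to 134.15 and 71.97 to 115.43 RPKM. The hairpin search was added later. Python 3.11.15 was used for tables. Alternatives were equal medians for all libraries, no filter on low values, a pseudocount of 0.1, a fit of the compared groups alone, the replicate number as a block, eBayes without trend, each liver left out in turn, and Con 3 and AOS 3 left out together.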

Additional observations from a re-analysis of the deposited data

Results flagged for a closer look

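In these livers, Hamp2 differed with AOS on the regular diet, where Con was low, and little on the high-fat diet. Hamp2 was higher in AOS than in Con by a log2 of 3.12 and had a log2 difference of -0.34 for HFD+AOS against HFD, whose livers overlapped, so that the effect on the high-fat diet minus that on the regular diet was -3.46 ± 0.73 (SE). In the fit over all genes (limma, 3 livers per group) this interaction was called, the 1 gene called of the 10, beside 0.504% of all tested genes. The gene was chosen with these values known, so the call is a description. Over 18 alternatives the difference was from -3.81 to -3.05. It was -3.47 without the livers Con 3 and AOS 3, where the call was lost, and -3.05 without replicate 2 of HFD. The call was kept when replicate 1 of HFD or replicate 3 of HFD+AOS was left out, and lost when any other 1 of the 12 livers was. The interaction rests on the same low Con values as both comparisons with Con.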

How the results depend on the processing

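The direction of no result was reversed among those called. With the replicate number as a block, the numbers of the 10 genes called were 0 for HFD against Con and 0 for the difference between diets, and that of the other iron genes was 0 for HFD against Con. Same-numbered livers did not vary together (correlations from -0.177 to 0.225, and 0 of 6 comparisons with all above 0.1), so the block stands for no known pairing. Without a low-value filter, the 10 genes gave 0 for AOS against Con and 0 for the difference between diets, and the other iron genes 0 for HFD against Con and 0 for A10-FMT against Con-FMT. With only the groups compared, the 10 genes gave 0 for HFD against Con, and the other iron genes 0 for HFD against Con, 0 for A10-FMT against HFD, 0 for A10-FMT against Con-FMT and 1 for HFD+AOS against HFD. Setting each library's median equal gave 7 other iron genes for A10-FMT against HFD, and 0 of the 10 genes for the difference between diets, as did eBayes without trend (0). Without the livers Con 3 and AOS 3, the 10 genes gave 0 for HFD against Con, 0 for AOS against Con and 0 for the difference between diets, and the other iron genes 0 for HFD against Con, 1 for A10-FMT against HFD, 0 for A10-FMT against Con-FMT and 1 for HFD+AOS against HFD. The cause was not tested. Leaving out 1 liver at a time, the 10 genes gave from 0 to 1 for HFD against Con, from 0 to 1 for AOS against Con, from 0 to 2 for A10-FMT against HFD, from 1 to 2 for HFD+AOS against HFD and from 0 to 1 for the difference between diets. The other iron genes gave from 0 to 5 for HFD against Con, from 0 to 5 for AOS against Con, from 0 to 6 for A10-FMT against HFD, from 0 to 3 for A10-FMT against Con-FMT, from 1 to 2 for HFD+AOS against HFD and from 0 to 4 for the difference between diets. Both counts of 5 came without replicate 2 of Con and hold the acute phase genes Hp, Hpx and Lcn2. Of the log2 differences of the 10 genes under alternatives, 931 moved by less than the spread between replicates and 29 by more. Of the tests of the called iron genes, 51 stayed past the threshold and 40 did not. Low RPKM values, among them those of Bmp6, have an unknown precision.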
